A study of Rattus norvegicus with 6 samples.

Results

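The genes described here are 10 members of the autophagy machinery: the Atg8 family genes Gabarapl1, Gabarap, Gabarapl2, Map1lc3a and Map1lc3b, the cargo receptor gene Sqstm1, and Becn1, Pik3c3, Atg5 and Atg7. A probe set, the group of short probes that the array uses to read a transcript, was taken as a member where the deposited annotation gave it exactly 1 of these symbols. The rule found 16 of 31099 probe sets, and these belonged to 8 of the 10 genes, of 13682 genes that the table names by a probe set with 1 symbol. Gabarapl2 and Map1lc3b appeared only in 3 probe sets that carry several symbols. The genes were chosen with the strain comparison in view, and above all because the sets of Gabarapl1 moved in opposite directions in it. Strain differences of the members are therefore given as descriptions, without printing their p-values. Where a member set is said to pass or miss the threshold used for all probe sets, that too is a description.

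Tissue came from the rostral ventrolateral medulla, the part of the brainstem from which sympathetic outflow to heart and vessels is driven. The groups were 3 spontaneously hypertensive rats (SHR), a strain bred for high blood pressure, and 3 WKY rats, whose strain name the labels spell Wistar-Kyoko. All 6 animals weighed 250 to 350 g and were untreated, each array held 1 animal, and the labels give neither age nor sex. Strain and blood pressure cannot be told apart in this design.

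Autophagy encloses cytoplasm in a double membrane and delivers it to the lysosome. A lipid kinase complex of Pik3c3 (Vps34) and Becn1 (Beclin 1) marks the membrane where the autophagosome forms. Atg7 then activates the ubiquitin-like proteins of the Atg8 and Atg12 families, and Atg5, joined to Atg12, helps to attach Atg8 proteins (LC3 and GABARAP) to the lipid of the growing membrane. Sqstm1 (p62) binds both ubiquitin and Atg8 proteins and so carries cargo in. Neurons are not replaced when they fail, and mice that lack Atg5 or Atg7 in neurons lose nerve cells.

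The arrays were alike in overall signal, with 64.8% to 67% of probe sets called Present and medians of 7.43 to 7.47 on the log2 scale. Markers fitted the labelled tissue in part. All 4 measured neuronal markers, all 5 oligodendrocyte markers, all 5 astrocyte markers and 4 of 5 catecholaminergic markers were Present on each array, the exception being the noradrenaline transporter gene Slc6a2, which was Present on none. Catecholaminergic signal varied widely within strains. Th read 751, 994 and 2030 (linear signal) in SHR replicates 1 to 3 and 723, 458 and 3200 in WKY replicates 1 to 3. The kept Ddc set read 1390 in WKY replicate 3 against 554 to 853 on the other arrays. Dbh and Pnmt did not follow, being highest in WKY replicate 1 (303 and 347, against 211 and 267 in WKY replicate 3). The part of this spread in the results below was not tested. Of 4 forebrain genes Tbr1 and Emx1 were Present on no array, while Neurod6 was Present on all. Summed linear signals of the oligodendrocyte markers were 77500 to 84900 in SHR and 85300 to 90900 in WKY, so that all SHR animals lay below all WKY animals, although limma called none of these 7 probe sets. The sums of 4 Hox genes of the hindbrain were 572 to 1060 in SHR and 1060 to 1430 in WKY, with overlapping strains. All 4 genes in these sums had a lower mean in SHR. Hoxa5 differed by -0.99 ± 0.32 and Hoxa4 by -0.35 ± 0.15 (log2, SHR minus WKY, SE), both with overlapping strains and neither called. Hoxb3 and Hoxb4 were each Present on 0 SHR and 2 WKY arrays. They differed by -0.44 ± 0.26 and -0.89 ± 0.39, and the strains did not overlap for Hoxb4. Of single markers, picked out after their values were seen, the endothelial gene Vwf differed by -0.85 ± 0.19 and the erythroid gene Alas2 by -0.7 ± 0.19 (log2, SHR minus WKY, SE), both without overlap and neither called, and the haemoglobin gene Hbb by -0.38 ± 0.16. Other endothelial genes did not follow Vwf: Pecam1 differed by -0.06 ± 0.19 and Cldn5 by -0.13 ± 0.11, both with overlapping strains. Flt1, Present on fewer than 3 of 6 arrays, differed by 0.39 ± 0.27, with all SHR animals higher. SHR replicate 2 stood apart for Ttr, a choroid plexus gene, with a linear signal of 668 against 90.8 to 114 on the other arrays, and for the astrocyte gene Gfap, with 2450 against 5610 to 6880. Other choroid plexus and ependyma genes did not follow Ttr in that animal: Folr1 read 58.6 against 70.5 to 118 on the other arrays, and Kl and Foxj1 were Absent. Without that animal the differences of Gabarapl1 1378842_at and Pik3c3 1369655_at, described below, were -0.7 (called) and 0.52 (not called). The part of these shifts in the results below was not tested. In whole tissue, fewer cells of a type and less RNA per cell cannot be told apart.

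Most of the autophagy probe sets had much the same signal in both strains. Of the 16, 15 passed the filter (Present on at least 3 of 6 arrays), 7 with a higher and 8 with a lower mean in SHR. Their log2 differences, SHR minus WKY, ran from -0.62 to 0.57 with a median of -0.01, beside a median of 0 over all 20790 kept probe sets. The median size of the difference was 0.1 for the members and 0.12 for all, and 10 of the 15 lay within 0.15 of 0. A set of Gabarapl1 (lower in SHR) and the set of Pik3c3 (higher in SHR) passed an adjusted p of 0.05 in limma, that is 2 of 15, where the share over all kept sets was 0.924% (higher in SHR 0.524%, lower 0.399%). The strains did not overlap for these 2 and for a set of Gabarap, so for 3 of 15, where 15% of all kept sets showed no overlap (7.26% higher and 7.76% lower in SHR). These counts follow from how the genes were chosen and carry no weight of their own.

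**Figure D1:**
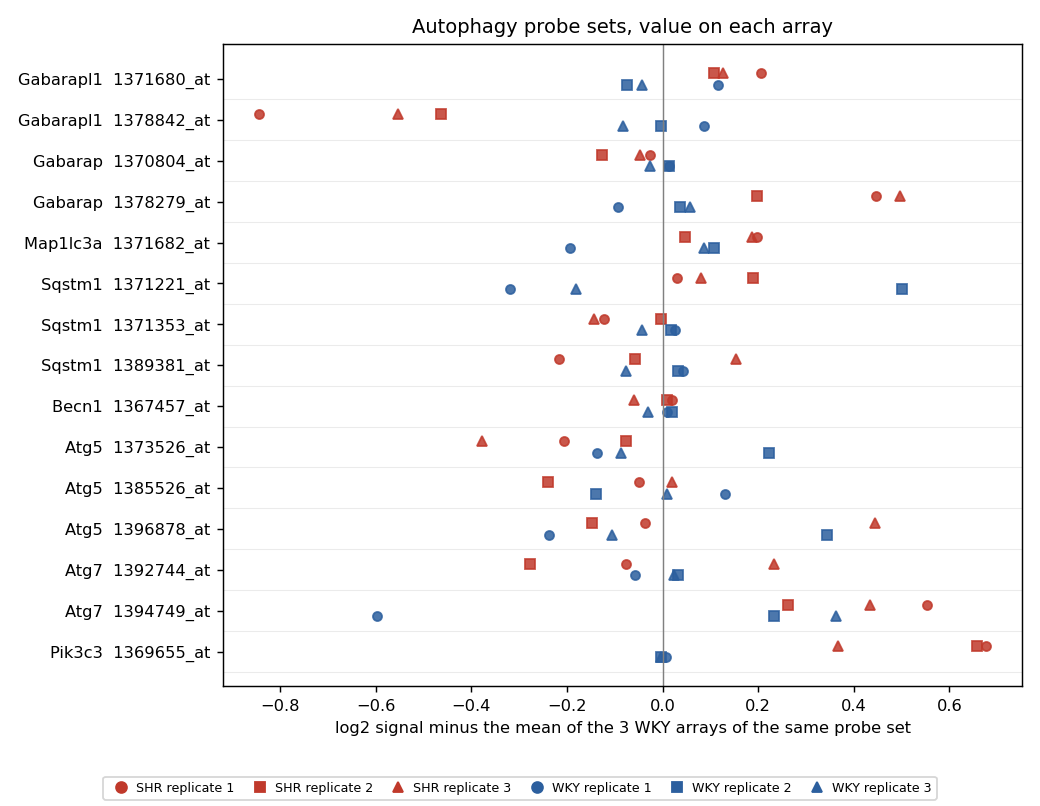
The plot gives each of the 15 kept autophagy probe sets on a row, with the log2 signal of every array (SHR red, WKY blue, symbol by replicate) minus the mean of the 3 WKY arrays of that set. Red and blue separate for Gabarapl1 1378842_at, Gabarap 1378279_at and Pik3c3 1369655_at, and mix in the other 12 rows.

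Gabarapl1, also called Gec1, encodes an Atg8 protein that is abundant in brain and binds both autophagy receptors and the GABA-A receptor. Its 2 probe sets parted between the strains. Set 1378842_at read 9.97, 10.35 and 10.26 (log2 signal) in SHR replicates 1 to 3 and 10.9, 10.81 and 10.73 in WKY replicates 1 to 3. Every SHR animal lay at least 0.38 below every WKY animal, and SHR replicate 1 was the lowest. The SHR mean was 10.19 ± 0.2 and the WKY mean 10.81 ± 0.08 (SD over 3 animals), a log2 difference of -0.62 ± 0.1 (moderated SE), or 1.54-fold lower in SHR. Without WKY replicate 1, 2 or 3 this set no longer passed the threshold, nor did it without a variance trend, though its difference stayed between -0.7 and -0.51 in all 15 alternatives that measured it.

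The other Gabarapl1 set, 1371680_at, did not show this. It read 12.34, 12.24 and 12.26 in SHR and 12.25, 12.06 and 12.09 in WKY. SHR replicate 2 lay just under WKY replicate 1, so the strains overlapped. The means were 12.28 ± 0.05 and 12.14 ± 0.1 (SD), a log2 difference of 0.14 ± 0.06 (SE), which limma did not call. Within each array, the log2 signal of 1371680_at minus that of 1378842_at was 2.36, 1.89 and 2.01 in SHR and 1.35, 1.25 and 1.36 in WKY. This gap was thus wider in every SHR animal, by 0.76 on average. No level is read from the gap itself, since probes of different sets bind with different strength.

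**Figure D2:**
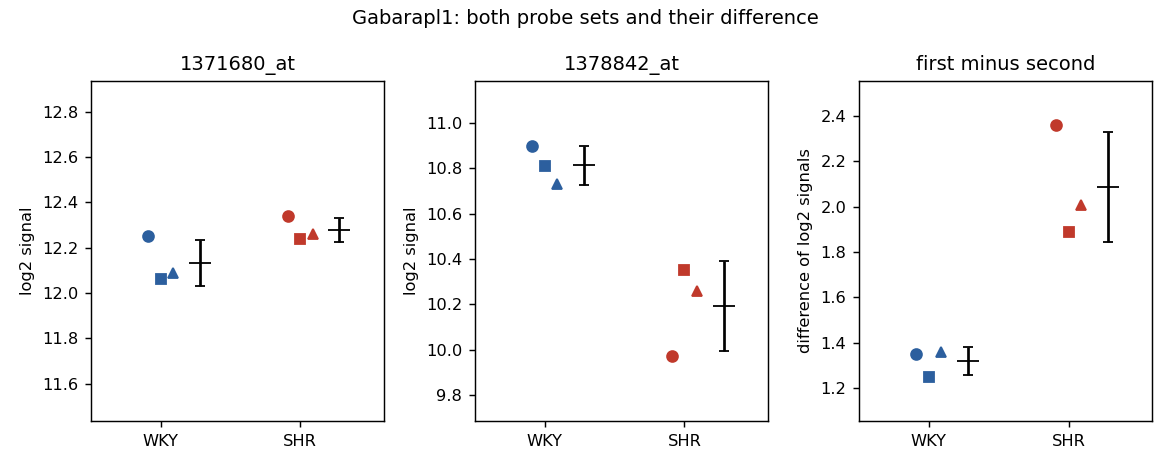
The panels show the log2 signal of both Gabarapl1 probe sets and, at right, the log2 signal of the first minus that of the second, for each array (symbols as replicate numbers) with mean and SD over 3 animals. All panels span 1.5 log2 units: 1371680_at overlaps between strains, 1378842_at is lower in all SHR animals, and the gap widens from 1.32 ± 0.06 in WKY to 2.09 ± 0.25 in SHR.

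Both sets lie at the same end of the gene. In the deposited annotation (Rnor5.0) set 1371680_at aligns to chromosome 4 from 211946009 to 211946619 on the plus strand, and set 1378842_at from 211942685 to 211946609. The Ensembl transcript listed there runs from 211937460 to 211946619, so the sets end 0 and 10 bases short of its last base. They differ in how they were tied to the gene. For 1371680_at the annotation lists 11 probes that match Gabarapl1 transcripts. For 1378842_at it lists 0 such probes, the symbol having been given because the target sequence overlaps the gene on the genome. Instead, 7 of its probes are recorded as cross-hybridising matches to a rat cDNA clone that the annotation marks as chimeric. That clone is also matched by all 11 probes of 1371680_at and by 11 probes of each of 2 sets for Glul, the glutamine synthetase gene. The Glul sets differed by 0.03 ± 0.12 (1367633_at) and -0.02 ± 0.09 (1386870_at; SE) and were not called. Probe sequences were not used here, and which transcript 1378842_at reads was not tested.

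Among the 2550 genes with 2 or more kept sets, the median span between the highest and the lowest log2 difference of a gene was 0.18. The span of Gabarapl1, 0.76, was reached or passed by 120 genes (4.71%). Since the opposite directions of the Gabarapl1 sets led to its choice, this rank is a description only and carries no weight. A called set was present in 47 genes, and 15 of these also had a set of the opposite sign, as Gabarapl1 did. The share with sets of opposite sign over all 2550 genes was not counted. Limma called sets of 1 gene in both directions for 0 of the 47.

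Gabarap encodes the founding GABARAP protein, described first as a partner of the GABA-A receptor γ2 subunit. Its set 1370804_at, with 11 probes matching the transcript, read 12.44, 12.34 and 12.42 in SHR and 12.48, 12.48 and 12.44 in WKY. The strains overlapped, and the difference was -0.07 ± 0.05 (log2, SE). Its dimmer set 1378279_at read 7.44, 7.19 and 7.49 in SHR and 6.9, 7.03 and 7.05 in WKY. All SHR animals were higher here, by at least 0.15, and the difference of 0.38 ± 0.19 (SE) was not called. It was Absent on WKY replicate 2. This set aligns to chromosome 10 from 56345609 to 56346085, upstream of the other set (56346367 to 56349668, plus strand) with 281 bases between them, and the annotation lists 0 of its probes as matching a transcript.

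Map1lc3a encodes LC3A, an Atg8 protein closely related to LC3B, the usual marker of autophagosomes. Its set 1371682_at (chromosome 3, 157170449 to 157171179) read 11.21, 11.06 and 11.2 in SHR and 10.82, 11.12 and 11.1 in WKY. SHR replicate 2 lay below WKY replicates 2 and 3, and the difference was 0.14 ± 0.09 (SE). The 3 sets whose symbols include Map1lc3b or Gabarapl2 each list 2 uncharacterised loci besides, so no value can be given to either gene. Set 1367669_a_at, which lists Map1lc3b, differed by 0.17 ± 0.09, while sets 1367783_at and 1380170_at, which list Gabarapl2, differed by -0.04 ± 0.05 and -0.05 ± 0.08. The strains overlapped in all 3, and none was called.

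Sqstm1 had 4 sets. Set 1371353_at, at the far end of the minus-strand gene (chromosome 10, 35463171 to 35463936), read 12.51, 12.63 and 12.49 in SHR and 12.66, 12.65 and 12.59 in WKY, a difference of -0.09 ± 0.06 (SE). SHR replicate 2 fell among the WKY animals. Set 1389381_at lies 7673 bases further upstream on the gene (35471610 to 35472107). It is assigned to another RefSeq transcript through 10 matching probes, and the annotation records 5 cross-hybridising matches to the transcript of the first set. It differed by -0.04 ± 0.1. Set 1371221_at was Present on 3 arrays and differed by 0.1 ± 0.29, its WKY animals spreading from 5.87 to 6.69. Set 1371220_at was Absent on all 6 arrays at 0.92 to 3.31 and is the set that did not pass the filter. No genome alignment is given for these last sets. The strains overlapped on all 4 Sqstm1 sets, and none of the 3 kept ones was called.

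Becn1 encodes Beclin 1, the scaffold that recruits regulators to the lipid kinase. It was the most even of the members: set 1367457_at read 10.95, 10.94 and 10.87 in SHR and 10.94, 10.95 and 10.9 in WKY, a difference of -0.01 ± 0.07 (log2, SE). Of all kept sets, 95.1% had a larger difference in size.

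Its partner Pik3c3, the catalytic subunit that makes phosphatidylinositol 3-phosphate, had the largest positive difference of the kept members. Set 1369655_at read 9.95, 9.93 and 9.64 in SHR and 9.28, 9.27 and 9.27 in WKY. The WKY animals were almost equal, and the lowest SHR animal, replicate 3, stood 0.37 above them. The SHR mean was 9.84 ± 0.17 and the WKY mean 9.27 ± 0.01 (SD over 3 animals), a log2 difference of 0.57 ± 0.1 (SE), or 1.48-fold higher in SHR, a size passed by 5.14% of all kept sets. Its 11 probes match the Pik3c3 transcripts, and the alignment covers chromosome 18 from 22694959 to 22778623 on the plus strand. The gene has no second set by which to check this value. Over 16 alternatives the difference stayed between 0.52 and 0.67, and the set passed the threshold in 10. It did not pass without WKY replicate 1, 2 or 3, without SHR replicate 1 or 2, or without a variance trend.

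Atg5 and Atg7 belong to the conjugation step. The Atg5 sets 1373526_at and 1385526_at lie near each other on chromosome 20 (51024872 to 51025499 and 51025914 to 51026120), match the transcript with 10 and 11 probes, and differed by -0.22 ± 0.17 and -0.09 ± 0.11 (SE). Set 1396878_at, 72082 bases upstream and with 0 matching probes, differed by 0.09 ± 0.26. On each the strains overlapped. The Atg7 set 1392744_at (chromosome 4, 210066919 to 210067472) differed by -0.04 ± 0.15. The other Atg7 set, 1394749_at, lies 176169 bases upstream and read 6.9, 6.61 and 6.78 in SHR and 5.75, 6.58 and 6.71 in WKY. WKY replicate 1, on which the set was Absent, stood apart, and SHR replicate 2 lay below WKY replicate 3. The difference was 0.42 ± 0.29 (SE) with that animal and 0.12 without it. Neither Atg7 set has a probe listed as matching a transcript.

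The member sets differed in how they had been tied to their genes. Of the 16 member sets, 10 were assigned through matching probes, 3 through overlap with the gene on the genome and 3 through clustered accessions. Among kept members the 10 sets with matching probes differed by 0.01 to 0.57 in size (median 0.1), and Pik3c3 was the set among them whose strains did not overlap. The 5 others differed by 0.04 to 0.62 (median 0.38), and the strains did not overlap for 2. Over all kept sets the median size was 0.1 for the 13113 with matching probes and 0.15 both for the 1525 assigned by genome overlap and for the 5444 assigned by clustered accessions. The shares called were 0.778%, 1.38% and 1.07%. The moderated SE moved with the kind of assignment too, with a median of 0.1 over the 10 member sets with matching probes and 0.19 over the 5 others. Signal level was mixed up with both. Of the 5 others, Gabarap 1378279_at, Atg5 1396878_at and Atg7 1394749_at were dim (WKY means 6.99, 6.67 and 6.34), with SE of 0.19, 0.26 and 0.29. The dim Sqstm1 set 1371221_at, with matching probes (WKY mean 6.19), also had an SE of 0.29. The brighter Gabarapl1 1378842_at (10.81), without them, had 0.1. The parts of SE and signal level in the larger differences were not tested. Cross-hybridising matches are recorded for sets with matching probes as well, up to 8 probes for Becn1 1367457_at, 7 for Pik3c3 1369655_at and 6 for Gabarap 1370804_at.

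**Figure D3:**
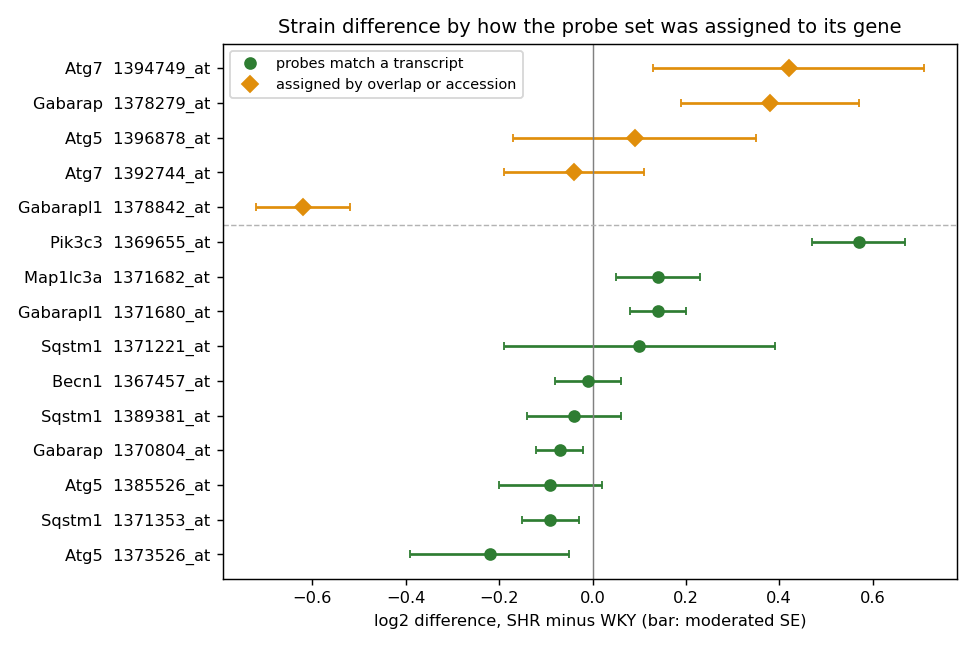
Points give the log2 difference, SHR minus WKY, of each kept member set with its moderated SE (3 animals a strain), in green where probes match a transcript and in orange where the symbol rests on genome overlap or clustered accessions. Apart from Pik3c3 at 0.57, green points lie between -0.22 and 0.14, while orange points run from -0.62 to 0.42.

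Around these members, the rest of the pathway was compared in the same fit. The list held 95 further autophagy, lysosome and regulatory genes with a probe set, of which 90 were kept, with 129 sets. Limma called 0 of the 129 at an adjusted p of 0.05, beside 0.924% of all kept sets. At an unadjusted p under 0.05 there were 6 (4.65%), against 9.52% of all kept sets. The strains did not overlap for 16 (12.4%, against 15%). The median difference was -0.04 on the log2 scale, and 78 sets (60.5%) were lower in SHR, against 49.7% of all.

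By step, the medians lay close to 0. The ULK complex that starts autophagy had a median of -0.1 over 7 sets, the remaining regulators of the Pik3c3 complexes -0.04 over 8, the Atg9, Atg2 and WIPI group that supplies lipid to the membrane 0.03 over 10, and the conjugation enzymes -0.11 over 10. Selective receptors (20 sets) and lysosomal genes (22 sets) both had -0.04, and tethering and fusion genes -0.03 over 22. Upstream kinases and mTORC1 had -0.06 over 16, Bcl2 family genes 0.13 over 3, Keap1 and Nrf2 genes 0.07 over 5, and GABARAP partners -0.03 over 6.

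**Figure D4:**
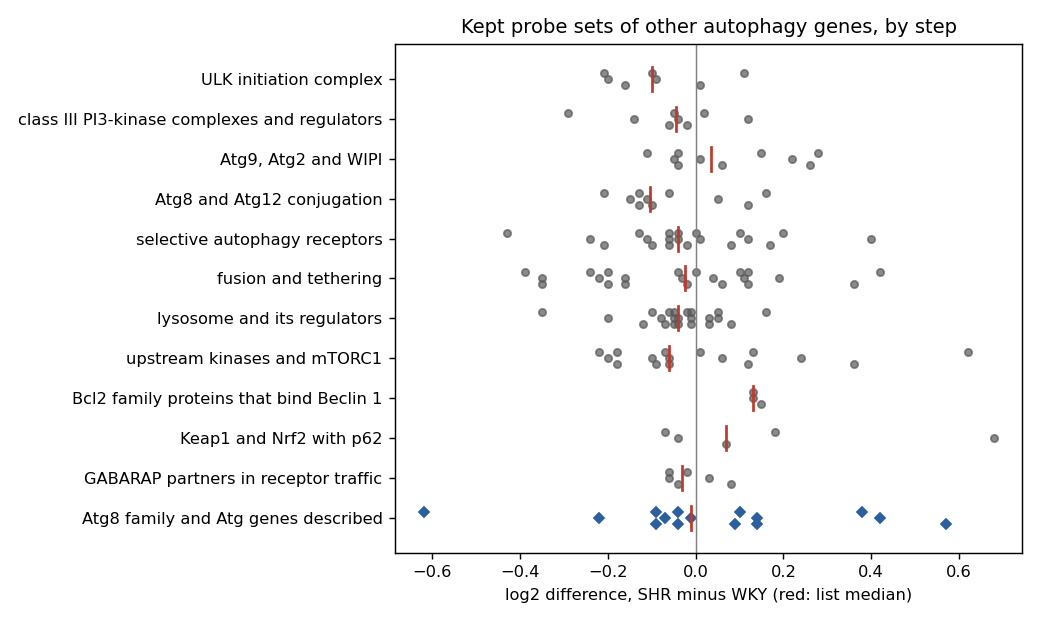
Each point is the log2 difference, SHR minus WKY, of a kept probe set of another autophagy gene (grey), grouped by step, with the 15 kept members in the bottom row (blue) and list medians as red bars. The list medians lie between -0.11 and 0.13, and none of the grey points passed the adjusted threshold.

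Of these genes the smallest p-values belonged to Hmox1 and Vps33a. Hmox1, heme oxygenase and a target of the Nrf2 factor that p62 can release from Keap1, averaged 8.1 ± 0.07 in SHR against 7.42 ± 0.17 in WKY (SD over 3 animals), a difference of 0.68 ± 0.16 (SE; limma, adjusted p = 0.102). Of other Nrf2 targets, Gclm differed by 0.18 ± 0.1 without overlap and Nqo1, named after its values were seen, by -0.07 ± 0.09 with overlapping strains. Vps33a, a subunit of the HOPS complex that tethers autophagosomes to lysosomes, differed by -0.39 ± 0.1 (adjusted p = 0.129) on 1 of its 5 kept sets, the other sets lying between -0.24 and 0.12. Rab7a, a late endosomal GTPase that acts with HOPS, differed by -0.35 ± 0.13 and -0.16 ± 0.07 on its 2 sets, at adjusted p = 0.395 and 0.482.

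Prkag1, a regulatory subunit of the energy sensor AMPK, differed by 0.24 ± 0.07 (SE; limma, adjusted p = 0.248), and Prkag2 by -0.18 ± 0.11, -0.09 ± 0.11 and -0.18 ± 0.25 on its 3 kept sets. Tfeb, the main transcription factor for lysosomal genes, differed by -0.35 ± 0.16 (adjusted p = 0.526) with overlapping strains, and Psap, a lysosomal lipid-binding precursor, by -0.08 ± 0.05. Optn, a receptor for ubiquitinated cargo like p62, differed by -0.43 ± 0.19 on a set whose strains did not overlap and by -0.04 ± 0.08 on another, and the mitophagy receptor gene Bnip3l by -0.13 ± 0.07 and 0.01 ± 0.07 on its 2 sets. Wipi1 and Wipi2 encode proteins that bind the lipid that Pik3c3 makes. Wipi1 differed by 0.22 ± 0.1 (limma, adjusted p = 0.522) on a set whose strains did not overlap and by 0.28 ± 0.23 on its other set, where they did. Wipi2 differed by 0.26 ± 0.12 without overlap (limma, adjusted p = 0.54). Among conjugation genes Atg3, which transfers Atg8 proteins to lipid, differed by -0.15 ± 0.09 and the protease gene Atg4d by -0.21 ± 0.16 and -0.13 ± 0.15 on its 2 sets.

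The genes with the smallest p in the remaining lists differed by less than 0.3, and where a gene had several kept sets the one with the smallest p is given first. Atg13 and Ulk2 of the initiating kinase complex differed by -0.21 ± 0.14 and -0.2 ± 0.14 (SE). Sh3glb1, which binds Beclin 1 through Uvrag, differed by -0.29 ± 0.18 and -0.14 ± 0.14 on its 2 sets, and Tmem41b, a lipid scramblase, by -0.06 ± 0.06. The genes for Mcl1 and Bcl-xL (Bcl2l1), which can hold Beclin 1 inactive, both differed by 0.13 (SE 0.13 and 0.17), and a second Bcl2l1 set by 0.15 ± 0.33. Gphn (gephyrin) and Nsf, partners in GABA-A receptor traffic, differed by 0.08 ± 0.09 and -0.06 ± 0.06, with -0.04 and 0.03 on the other Nsf sets. Over the 22 genes named from these 11 lists limma's adjusted p ran from 0.102 to 0.877.

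The array patterns most like those of the Gabarapl1 sets were found by the root mean square distance between log2 values, each centred on its own mean over the 6 arrays. The search took in kept sets of other genes with 1 symbol whose range over the arrays was at least 0.14 for 1371680_at (13235 sets) and 0.46 for 1378842_at (6833 sets), so flatter sets were left out. For 1371680_at the nearest sets of other genes were those of Rab40c (distance 0.018), Tax1bp3 (0.019) and Trio (0.025). For 1378842_at they were those of Kcnc2 (0.062), a voltage-gated potassium channel gene, Polr3k (0.085), an RNA polymerase III subunit gene, and Pou3f4 (0.088), a transcription factor gene. Kcnc2 read 7.52, 8.01 and 7.85 in SHR and 8.38, 8.3 and 8.31 in WKY, with SHR replicate 1 lowest, as for 1378842_at. Like 1378842_at, this Kcnc2 set was assigned through genome overlap, with 0 probes listed as matching a transcript. The Polr3k and Pou3f4 sets, in contrast, were each assigned through 11 matching probes. None of the 6 is an autophagy gene of the lists used here, and over 6 arrays likeness of this kind is a description only.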

How the data were processed

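RNA of 6 rats was measured on Affymetrix rat arrays that read transcripts near the 3′ end. The authors deposited log2 signals with a detection call (Present, Marginal or Absent) and a table of linear signal intensities; the submitters' processing notes name MAS5. The deposited log2 values equalled the log2 of the deposited intensities floored at 1 (largest difference 8.2e-06), and each array had a trimmed mean of 500.1, so arrays were scaled before deposit. Background and probe-level steps are not given in the sources used here.

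Of 31099 probe sets 57 controls were left out, and 20790 sets Present on at least 3 arrays were fitted with limma 3.58.1 in R 4.3.3 (strain as factor, eBayes with variance trend, Benjamini-Hochberg over all 20790). Adjusted p under 0.05 was a call. Differences are SHR minus WKY, and SE is limma's moderated one. Members and gene lists were chosen with earlier results of these data known. Each member set is accounted for; of each list the 2 genes with the smallest p are named, and 3 sets nearest to each Gabarapl1 set. Lists were matched by deposited symbol or, through Entrez ID, by RefSeq symbol (GRCr8). On simulated data for this comparison (20790 sets, 200 changed, 5 simulations) the fit called 35% of sets changed by 0.5 on the log2 scale and 77% of those changed by 1, and 7.98% of calls were false. The median SE over kept sets was 0.15; with arrays, the number of animals limits precision. Alternatives covered normalization, pseudocounts, filters, variance model, source table, replicate block and left-out animals; restricting the fit to sets with matching probes was added after the data were seen.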

Additional observations from a re-analysis of the deposited data

How the results depend on the processing

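The 2 member calls, 192 calls over all sets and 0 calls among other autophagy sets held, within 1.5 times, under quantile normalization, median centring, pseudocounts of 16 and 64, no filter, the filter on all 6 arrays, the linear table and the replicate block (196 calls over all sets, 2 members and 0 other autophagy sets). Samples with the same replicate number did not deviate together (r = 0.077, -0.01 and 0.066 across sets), so the block pairs only numbers. Without a variance trend the calls were 63 over all sets and 0 among members. In the fit on sets with matching probes, added after the data were seen, they were 81 over all sets and 1 among members (Pik3c3, the Gabarapl1 set not being in it). With each animal left out, calls over all sets ranged from 78 to 205, lowest without WKY replicate 3 (78), 1 (81) or 2 (81). Calls among members ranged from 0 (without WKY replicate 1, 2 or 3) through 1 (without SHR replicate 1 or 2) to 2, and among other autophagy sets stayed at 0. The strain gap between the Gabarapl1 sets ranged from 0.62 to 0.86, and the members' median difference from -0.06 to 0.05. Sets near background, such as 1394749_at and 1371221_at, had SE up to 0.29, against a median of 0.15 over all kept sets, and a difference of 0.42 was not called on 1394749_at.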
